A study of Saccharomyces cerevisiae with 6 samples.

Results

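The genes described here encode the initiation, elongation and termination factors of cytosolic translation in the budding yeast Saccharomyces cerevisiae. They are 32 named genes out of 6225 gene identifiers on the array, taken as the probes whose systematic name is the open reading frame of a listed gene. All 32 were found, each with 1 probe, and all 32 were well above background on all 6 arrays, so none entered the test through 1 group alone. RNA was taken from the laboratory strain BY4743, which derives from S288C, after 4 h at 30 °C in synthetic medium with 2% glucose, either without addition (untreated, 3 samples) or with 10 mM glycolaldehyde (3 samples), a small reactive hydroxyaldehyde. Per the labels, 3 starter cultures grown independently gave the RNA, and every sample has an array of its own, read in a single colour. The labels give the culture both as static and as anaerobic, so oxygen supply is uncertain, and so is the length of exposure, since the wording of the growth protocol may place the aldehyde in the overnight culture already. The ploidy entry reads haploid, while BY4743 is generally known as a diploid.

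The deposited records disagree on the arrays. The authors' deposited value table has 1 column per sample, each identical at all 6256 probes to the spot means of 1 scanner file. For 3 of the 6 samples the identical file is attached to another sample, which moves 2 arrays to the opposite group and leaves 4 in place. The 2 arrays moved are untreated replicate 3 and glycolaldehyde replicate 1. The groups below follow the value table and the sample titles. The free-text descriptions name the opposite condition for every sample and were not used; if they held, every direction and every share of rises and falls below would turn round. With the scanner files grouped as attached, 0 of 5924 genes passed the test in limma (137 had an unadjusted p under 0.05, smallest adjusted p = 0.916). In that grouping 0 of the 32 genes passed and 0 had an unadjusted p under 0.05. Calls on the 4 arrays that both records place in the same group are given beside those of all 6. On each array 94.8% to 97% of probes exceeded background well, with 0 saturated spots. Probes for HIS3, LEU2 and URA3, which the strain lacks, were well above background on 0 arrays. The probes of the mating genes STE2, STE3, GPA1, STE4, STE18 and FUS3 were well above background on all 6. Of these, 4 rose (0.37 to 0.45 on the log2 scale), GPA1 with an adjusted p of up to 0.0667 when 1 array was left out (untreated replicate 1 or 2, or glycolaldehyde replicate 1). Their part in the results was not tested.

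Translation begins when a preinitiation complex, built from the small ribosomal subunit, eIF1, eIF1A, eIF3, eIF5 and the eIF2 complex that carries the initiator tRNA, is brought to the capped end of an mRNA by the eIF4 group and poly(A)-binding protein and scans to a start codon. Elongation uses eEF1A to deliver aminoacyl-tRNA, eEF1B to recharge eEF1A with GTP, eEF2 to move the ribosome, eIF5A to help peptide bond formation at difficult sequences, and eEF3, a factor typical of fungi. At a stop codon eRF1 and eRF3 release the chain. In yeast most of these proteins are abundant, and several are made from pairs of near-identical genes.

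The question addressed is how the transcripts of these factors differ when cells are exposed to glycolaldehyde. Of the 32 genes 13 fell with glycolaldehyde. Of these, 10 were from the 8 genes listed for mRNA binding and unwinding or the 10 listed for elongation. They include TIF1 with TIF2 and EFT1 with EFT2, near-identical pairs whose signals were not separated. DED1, EFT1, PAB1, RPG1 and TEF4 had the largest falls, 2 genes (HCR1 and CDC33) rose, and 17 did not pass (limma, Benjamini-Hochberg adjusted p under 0.05 over 5944 genes). The background shares over all genes tested were 23.5% that fell and 29.6% that rose, 53.1% in all, beside which 40.6% of the 32 genes fell and 6.25% rose. In bulk RNA scaled to each array, fewer cells with a transcript and less of it per cell cannot be told apart, and a change shared by all genes would not be seen. The falls were small. The largest was 1.71-fold, and 0 of the 32 genes changed at least 2-fold, where 81 of all genes rose and 108 fell by that much. The median log2 change of the 32 genes was -0.12, against 0.03 over all genes tested, and 24 of the 32 values (75%) were below 0 against 45.5% of all genes. On the 4 arrays whose group is the same in both records the median was -0.22, where that of all genes was 0.03. These arrays are untreated replicates 1 and 2 and glycolaldehyde replicates 2 and 3, so the only array from slide 3 and scan day 2 is a glycolaldehyde one, and treatment cannot be told apart from slide and day in its part of the change. On those arrays 2 of the 32 genes rose and 13 fell, beside shares of 26.2% and 22.1% of all genes, and 13 of the 15 calls held. FUN12 and ANB1 did not pass on the 4 arrays (adjusted p = 0.0659 and 0.0768), while TIF3 and YEF3 did (0.045 and 0.0404). Replicate 3 minus the mean of replicates 1 and 2 was -0.19 in untreated and -0.12 in glycolaldehyde samples for TIF3, and the same difference was below 0 in both groups for YEF3 and above 0 in both for ANB1.

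**Figure D1:**
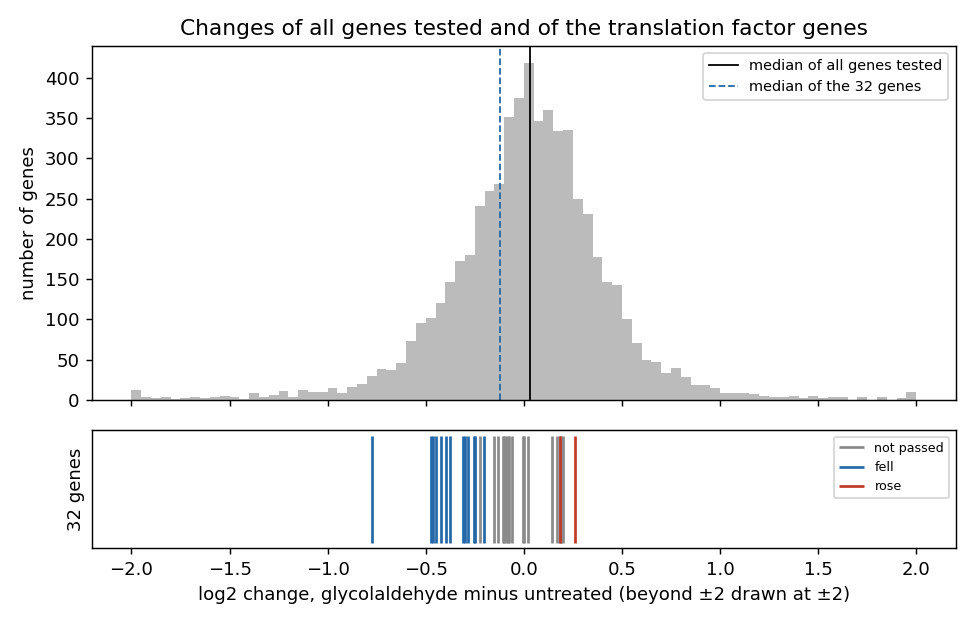
Upper panel: number of genes (vertical axis) by log2 change, glycolaldehyde minus untreated (horizontal axis), for the 5944 genes tested, with the median of all genes (0.03, solid) and of the 32 translation factor genes (-0.12, dashed). Changes beyond 2 in either direction are drawn at 2. Lower panel: 1 line per translation factor gene, coloured by its call; all lines lie between -0.77 and 0.26.

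Same-numbered arrays of the 2 groups deviated from their group means together, so a replicate block was fitted as well. Deviations within a group sum to 0, so a shift of replicate 3 in both groups also moves replicates 1 and 2 together. Pairing of replicates 1 and 2 by number was therefore not tested. With the replicate block 7 of the 32 genes rose and 16 fell, beside 36.6% and 29.1% of all genes, and 0 of the 15 calls were lost. The 8 genes gained with the block were SUI1, TIF11, SUI2, TIF5, TIF35, TIF4632, TIF3 and YEF3, each named below with its value. When replicates 1 and 2 of each group were averaged under a scan day block, 2 of these 8 passed, TIF5 and YEF3 (adjusted p = 0.00643 and 0.0123). SUI1, TIF11, SUI2, TIF35, TIF4632 and TIF3 did not (0.159, 0.0748, 0.0745, 0.0607, 0.15 and 0.112). Standard errors in that fit were nearly the same for all 32 genes, from 0.0765 for TIF2 to 0.083 for DED1. Its p-values therefore follow mainly the size of the change and say little about the spread of each gene. In that fit 2 of the 32 genes rose and 13 fell, beside 31.7% and 26.2% of all genes. These are not the same genes as in the main fit, as FUN12 and CDC33 lost their calls (limma adjusted p = 0.0695 and 0.0772). Every glycolaldehyde array lay below every untreated array for 15 of the 32 genes (27.1% of all genes) and above for 6 (33.8% of all genes). These shares describe the arrays, and replicates 1 and 2 of each group were close to each other.

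**Figure D2:**
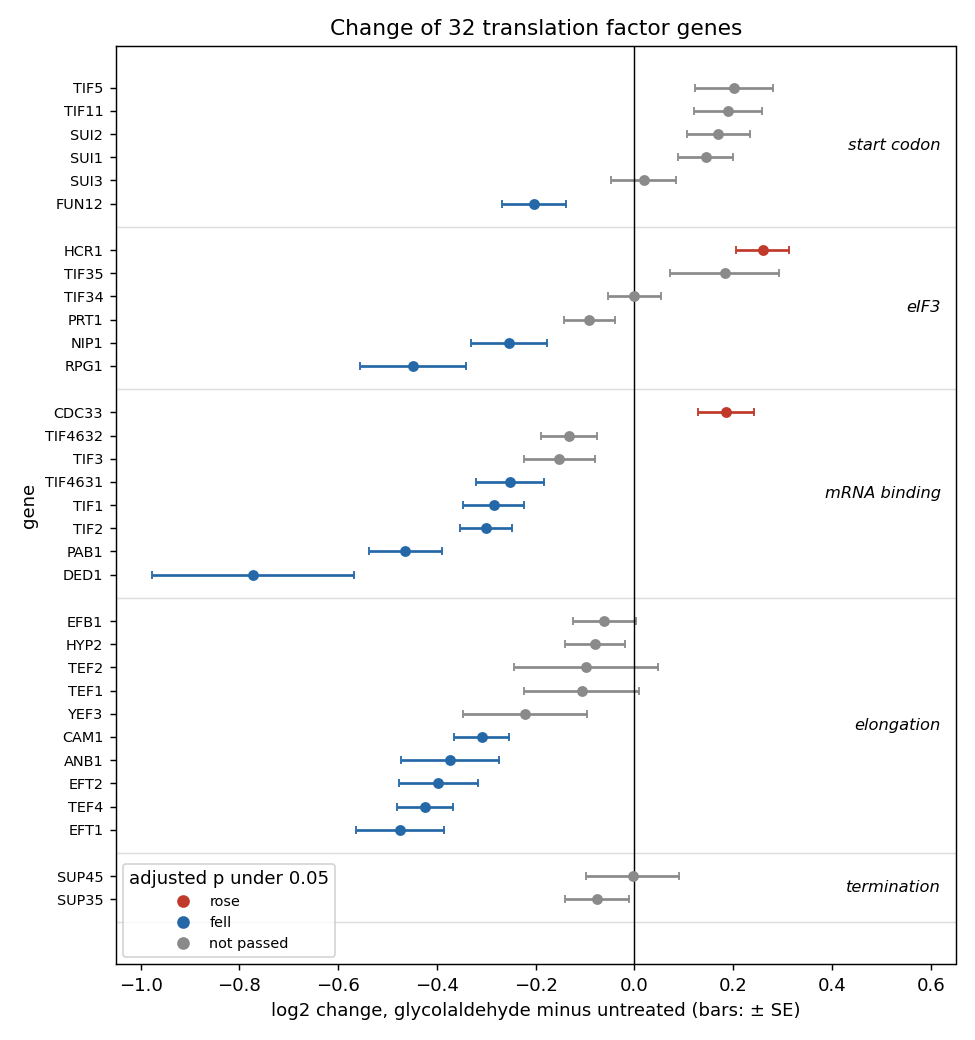
Log2 change, glycolaldehyde minus untreated, of each of the 32 genes (points) with the moderated standard error of limma (bars, n = 3 per group), grouped by role. Genes that fell are blue, those that rose red and those that did not pass grey. Of the 13 falls 5 are in mRNA binding and 5 in elongation genes, and neither termination gene passed.

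Levels are given as log2 intensity relative to the 75th percentile of the array, in the order of replicates 1 to 3, and can be compared between arrays for 1 gene but not between genes. Among the factors that bind the small subunit and select the start codon, 1 of 6 genes fell and 0 rose, with a median log2 change of 0.16. These shares were 16.7% that fell and 0% that rose, beside 23.5% and 29.6% of all genes tested. FUN12 encodes eIF5B, the GTPase that joins the subunits. Its log2 levels were 1.53, 1.60 and 1.47 in untreated and 1.29, 1.27 and 1.43 in glycolaldehyde samples. The groups did not overlap, with glycolaldehyde replicate 3 only just below the lowest untreated array. FUN12 fell by 0.20 ± 0.07 (SE, n = 3 per group, limma adjusted p = 0.0314). The call was lost without untreated replicate 1 or 2 or glycolaldehyde replicate 1 or 2 (adjusted p = 0.0844, 0.111, 0.109 and 0.115). It was also lost with slide as a block and with normexp background correction (0.0529 and 0.0879).

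The other 5 genes of this group did not pass. TIF11, for eIF1A, which promotes scanning, had log2 levels of 2.41, 2.49 and 2.44 in untreated and 2.70, 2.70 and 2.50 in glycolaldehyde samples. Its log2 change was 0.19 ± 0.07 (limma adjusted p = 0.0513, and 0.0211 with the replicate block). SUI2, the alpha subunit of eIF2 that is phosphorylated by the kinase Gcn2, had log2 levels of 0.72, 0.65 and 0.62 in untreated and 0.91, 0.86 and 0.74 in glycolaldehyde samples. Its groups did not overlap, and glycolaldehyde replicate 3 was the array nearest to the untreated ones. Its log2 change was 0.17 ± 0.06 (adjusted p = 0.0545, and 0.0156 with the replicate block). SUI1, for eIF1, which guards start codon choice, and TIF5, for eIF5, which makes eIF2 hydrolyse its GTP, had log2 changes of 0.14 ± 0.06 and 0.20 ± 0.08 (adjusted p = 0.0584 and 0.0632, and 0.0369 and 0.0296 with the replicate block). In all 4 of these genes every glycolaldehyde array was above every untreated one. SUI3, the beta subunit of eIF2, had a log2 change of 0.02 ± 0.07 (adjusted p = 0.836) and overlapping groups.

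Of the 6 genes of eIF3, the scaffold complex on the small subunit, 2 fell, 1 rose and 3 did not pass. Their median log2 change was -0.05. The shares were 33.3% that fell and 16.7% that rose, beside 23.5% and 29.6% of all genes tested. RPG1 encodes the largest subunit of the yeast complex, eIF3a. Its log2 levels were -0.27, -0.14 and -0.57 in untreated and -0.85, -0.74 and -0.74 in glycolaldehyde samples. The groups did not overlap, but untreated replicate 3 lay nearer to the glycolaldehyde arrays than to the other untreated ones. RPG1 fell by 0.45 ± 0.11 (limma adjusted p = 0.00933), or 1.36-fold. NIP1, for eIF3c, had log2 levels of -0.14, -0.21 and -0.39 in untreated and -0.55, -0.43 and -0.51 in glycolaldehyde samples. It fell by 0.25 ± 0.08 (adjusted p = 0.0249), and the call was lost without untreated replicate 1 or 2 or glycolaldehyde replicate 1 or 3 (adjusted p = 0.0908, 0.0799, 0.0875 and 0.0564). 

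HCR1, for eIF3j, a loosely bound subunit that in yeast also acts in ribosome recycling, moved the other way. Its log2 levels were -0.52, -0.50 and -0.61 in untreated and -0.27, -0.29 and -0.29 in glycolaldehyde samples, with the 3 glycolaldehyde arrays close together and above all untreated ones. HCR1 rose by 0.26 ± 0.05 (limma adjusted p = 0.00492), or 1.20-fold. The core subunit genes PRT1 (eIF3b) and TIF34 (eIF3i) had log2 changes of -0.09 ± 0.05 and 0.00 ± 0.05 and did not pass (adjusted p = 0.172 and 0.995). TIF35, for eIF3g, had log2 levels of 2.05, 2.06 and 1.82 in untreated and 2.25, 2.29 and 1.93 in glycolaldehyde samples, so that replicate 3 was the lowest array of both groups. Its log2 change of 0.18 ± 0.11 did not pass (adjusted p = 0.201) and did with the replicate block (0.0135).

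Genes whose products bring the mRNA to the ribosome and unwind it had a median log2 change of -0.27. Of 8 genes 5 fell and 1 rose (62.5% and 12.5%, beside 23.5% and 29.6% of all genes tested). DED1, an essential DEAD-box helicase that helps scanning through structured leaders, had the largest change of the 32 genes. Its log2 levels were 0.62, 0.73 and -0.09 in untreated and -0.31, -0.20 and -0.54 in glycolaldehyde samples. Untreated replicate 3 was closer to the glycolaldehyde arrays than to the other untreated ones, although the groups did not overlap. DED1 fell by 0.77 ± 0.20, or 1.71-fold (limma adjusted p = 0.0146), by 0.93 on scan day 1 and by 0.46 on scan day 2. Without glycolaldehyde replicate 3 the call was lost (adjusted p = 0.0507), and without untreated replicate 3 the change was -1.03.

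PAB1, the poly(A)-binding protein, which bridges the mRNA tail to eIF4G, had log2 levels of 1.67, 1.69 and 1.50 in untreated and 1.07, 1.25 and 1.15 in glycolaldehyde samples. The groups were clearly apart on every array. PAB1 fell by 0.46 ± 0.07 (limma adjusted p = 0.00152), or 1.38-fold. TIF1 and TIF2 both encode eIF4A, the helicase of the cap complex, as the same protein. TIF1 had log2 levels of 4.59, 4.58 and 4.45 in untreated and 4.27, 4.30 and 4.19 in glycolaldehyde samples, and TIF2 had 4.42, 4.43 and 4.37 against 4.10, 4.15 and 4.07. They fell by 0.29 ± 0.06 and 0.30 ± 0.05 (adjusted p = 0.00576 and 0.00225). Signal shared by near-identical genes was not separated, so the pair may count as 1 measurement. The same limit holds for EFT1 with EFT2 and for TEF1 with TEF2 below.

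The scaffold eIF4G is also made from a gene pair, whose proteins differ more. TIF4631, for eIF4G1, had log2 levels of 0.78, 0.82 and 0.72 in untreated and 0.41, 0.55 and 0.61 in glycolaldehyde samples, with no overlap. It fell by 0.25 ± 0.07 (limma adjusted p = 0.0168), and the call was lost without untreated replicate 1 or 2 or glycolaldehyde replicate 1 (adjusted p = 0.0552, 0.0627 and 0.0636). TIF4632, for eIF4G2, had a log2 change of -0.13 ± 0.06 and did not pass (adjusted p = 0.087, and 0.0463 with the replicate block). CDC33 encodes eIF4E, which binds the cap. It had log2 levels of 1.99, 2.01 and 2.10 in untreated and 2.26, 2.22 and 2.17 in glycolaldehyde samples. CDC33 rose by 0.19 ± 0.06 (adjusted p = 0.0264), while TIF4631, TIF1 and TIF2 of the same cap complex fell. The call was lost without untreated replicate 1 or 2 or glycolaldehyde replicate 1 or 2 (adjusted p = 0.104, 0.0861, 0.101 and 0.0846) and with each array centred on its median. TIF3, for eIF4B, which stimulates eIF4A, had a log2 change of -0.15 ± 0.07 and did not pass (adjusted p = 0.112, and 0.0238 with the replicate block).

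**Figure D3:**
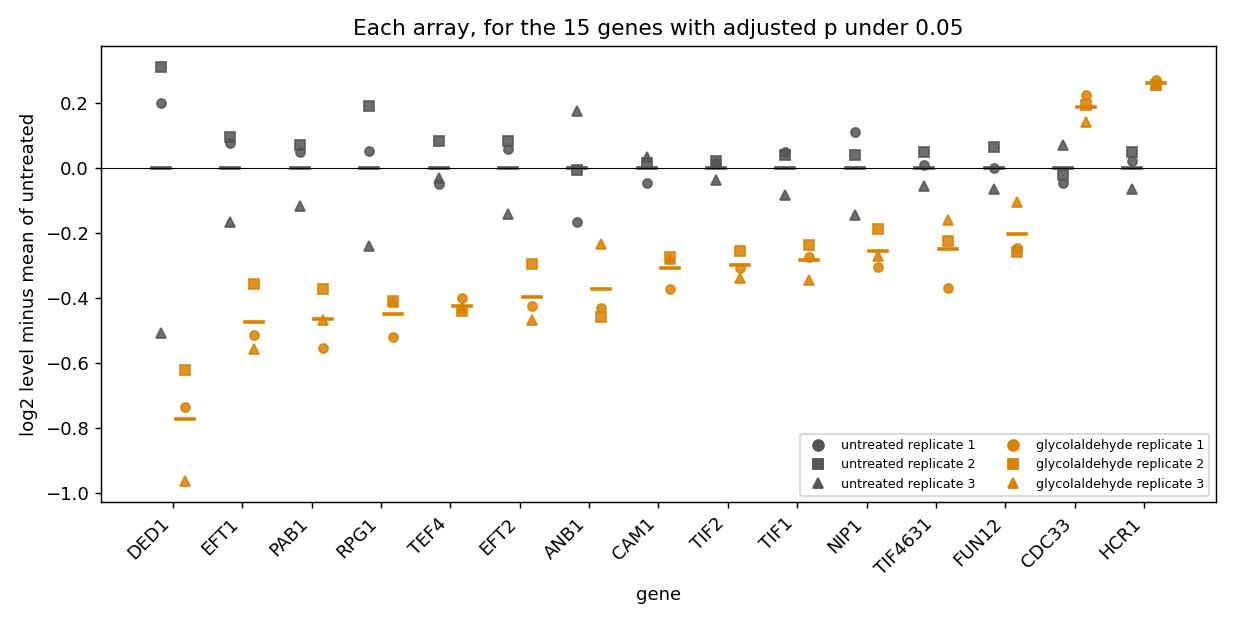
Log2 level of each array minus the mean of the untreated arrays (vertical axis) for the 15 genes that passed (horizontal axis, ordered by change). Grey marks are untreated and orange marks glycolaldehyde samples, with a marker shape for each replicate number and a short line at each group mean. The groups do not overlap in any of the 15 genes, and untreated replicate 3 of DED1 lies far below the other untreated arrays.

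All 10 elongation genes had log2 changes below 0 (median -0.27), as did 45.5% of all genes tested. Of the 10, 5 passed, all of them falls (50%, beside 23.5% of all genes that fell). EFT1 and EFT2 both encode eEF2, the translocase, as the same protein. EFT1 had log2 levels of 4.93, 4.95 and 4.69 in untreated and 4.34, 4.50 and 4.30 in glycolaldehyde samples, and it fell by 0.48 ± 0.09 (limma adjusted p = 0.00308), or 1.39-fold. EFT2 had log2 levels of 5.11, 5.14 and 4.91 in untreated and 4.63, 4.76 and 4.59 in glycolaldehyde samples, and it fell by 0.40 ± 0.08 (adjusted p = 0.00423). Replicate 3 was the lowest array of both groups for both genes. The EFT1 to EFT2 difference within an array lay between -0.22 and -0.18 in untreated and between -0.28 and -0.26 in glycolaldehyde samples. It shifted by -0.08 without overlap between the groups, as in 1 of the 6 gene pairs compared, and no shift was tested. The shifts of TIF1 to TIF2, TIF4631 to TIF4632, TEF1 to TEF2 and TEF4 to CAM1 were 0.02, -0.12, -0.01 and -0.11, with overlap in each.

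TEF4 and CAM1 encode the gamma subunit of the eEF1B complex. TEF4 had log2 levels of 3.81, 3.95 and 3.83 in untreated and 3.46, 3.43 and 3.43 in glycolaldehyde samples. It fell by 0.42 ± 0.06 (1.34-fold), with the smallest adjusted p of the 32 genes (limma, 0.000683). CAM1 had log2 levels of 2.26, 2.32 and 2.34 in untreated and 1.93, 2.03 and 2.03 in glycolaldehyde samples, again well apart, and fell by 0.31 ± 0.06 (adjusted p = 0.00258). EFB1, the alpha subunit that carries the exchange activity, had log2 levels of 4.05, 4.14 and 4.08 in untreated and 4.09, 4.07 and 3.92 in glycolaldehyde samples. These overlapped, and the log2 change of -0.06 ± 0.06 did not pass (adjusted p = 0.458).

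TEF1 and TEF2, the pair of genes for eEF1A, encode the same protein. TEF1 had log2 levels of 5.64, 5.65 and 5.40 in untreated and 5.57, 5.59 and 5.22 in glycolaldehyde samples. TEF2 had 5.76, 5.78 and 5.40 in untreated and 5.69, 5.70 and 5.26 in glycolaldehyde samples. In both genes the groups overlapped and replicate 3 was the low array of each group. Their log2 changes of -0.11 ± 0.12 and -0.10 ± 0.15 did not pass (limma adjusted p = 0.473 and 0.602, and 0.0942 and 0.10 with the replicate block). YEF3, for eEF3, had log2 levels of 4.75, 4.71 and 4.39 in untreated and 4.48, 4.53 and 4.18 in glycolaldehyde samples. Its log2 change of -0.22 ± 0.13 did not pass (adjusted p = 0.173) and did with the replicate block (0.00479).

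The factor eIF5A, which carries the modified amino acid hypusine, is encoded by HYP2 in aerobic and by ANB1 in oxygen-poor yeast cells. ANB1 had log2 levels of -2.20, -2.04 and -1.86 in untreated and -2.46, -2.49 and -2.27 in glycolaldehyde samples. The groups did not overlap, and replicate 3 was the highest array of both groups, unlike in most of the 32 genes. ANB1 fell by 0.37 ± 0.10, or 1.30-fold (limma adjusted p = 0.0148), and the call was lost without glycolaldehyde replicate 1 or 2 (0.0535 and 0.0555). HYP2 had log2 levels of 4.77, 4.87 and 4.71 in untreated and 4.74, 4.72 and 4.65 in glycolaldehyde samples, which overlapped, and its log2 change of -0.08 ± 0.06 did not pass (adjusted p = 0.306). The HYP2 to ANB1 difference within an array had a mean of 6.82 ± 0.22 in untreated and 7.11 ± 0.17 in glycolaldehyde samples (SD, n = 3), with overlap.

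CYC1, for cytochrome c isoform 1, is the gene next to ANB1 in the reference annotation and is known to be expressed when oxygen is present. Its log2 levels were 0.06, 0.18 and 0.16 in untreated and 0.91, 0.94 and 0.82 in glycolaldehyde samples. CYC1 rose by 0.76 ± 0.06 (limma adjusted p = 6.71e-05) where ANB1 fell. Of 12 oxygen-responsive genes listed, 4 fell, 2 rose and 6 did not pass (median log2 change -0.12). The shares were 33.3% that fell and 16.7% that rose, beside 23.5% and 29.6% of all genes tested. AAC3, a mitochondrial ADP/ATP carrier used without oxygen, was the other gene that rose (0.45 ± 0.09). ROX1, the repressor of ANB1 and other hypoxic genes, fell by 0.40 ± 0.08, OLE1, the fatty acid desaturase, fell by 0.33 ± 0.08, and COX5A, the aerobic form of a cytochrome c oxidase subunit, fell by 0.31 ± 0.10. OLE1 lost its call without untreated replicate 1 or 2 (0.0507 and 0.0503), and COX5A without untreated replicate 1 or 2 or glycolaldehyde replicate 1 or 3 (adjusted p of up to 0.103). HEM13, the other gene that fell, was picked after its values were seen. It kept its call whichever array was left out (log2 change between -0.36 and -0.24, limma adjusted p of up to 0.0389).

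The termination genes did not pass. SUP45, for eRF1, which reads the stop codon, had log2 levels of 1.54, 1.45 and 1.24 in untreated and 1.45, 1.49 and 1.27 in glycolaldehyde samples. SUP35, for eRF3, the GTPase that forms the prion [PSI+], had 0.88, 0.89 and 0.99 in untreated and 0.78, 0.82 and 0.94 in glycolaldehyde samples. The groups overlapped in both, with log2 changes of 0.00 ± 0.09 and -0.08 ± 0.06 (limma adjusted p = 0.979 and 0.353).

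Arrays were on 3 slides and were scanned on 2 days, with replicate 3 of both groups on slide 3 and scan day 2. Untreated replicate 1 was the only array on slide 1, so it adds nothing to the change estimated with slide as a block. Within scan day 1 (2 arrays against 2) the median log2 change of the 32 genes was -0.13, and within scan day 2 (1 against 1, no test) it was -0.11, against 0.04 and 0.02 over all genes. Several changes were smaller on scan day 2. RPG1 had a log2 change of -0.59 on scan day 1 and -0.17 on scan day 2, FUN12 one of -0.28 and -0.04, and CDC33 one of 0.24 and 0.07. TIF2, CAM1, TEF4 and ANB1 had about the same change on both days: -0.30 and -0.30 for TIF2, -0.31 and -0.31 for CAM1, -0.44 and -0.40 for TEF4, and -0.36 and -0.41 for ANB1.

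**Figure D4:**
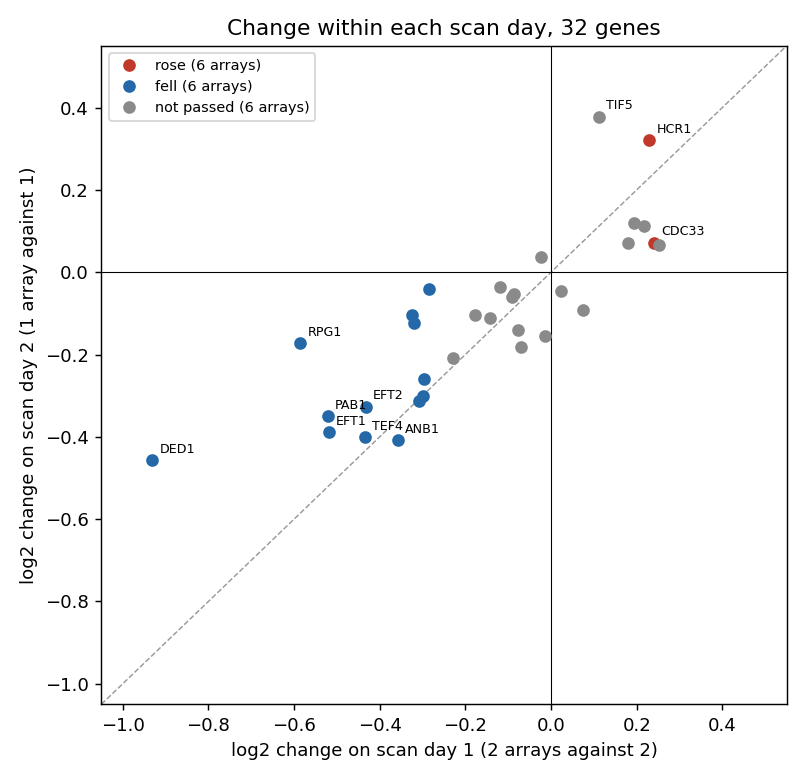
Log2 change, glycolaldehyde minus untreated, of the 32 genes within scan day 1 (horizontal axis, 2 arrays against 2) and within scan day 2 (vertical axis, 1 against 1), coloured by the call over 6 arrays; the dashed line marks equal change. The 13 genes that fell are below 0 on both axes, as they must be where the groups do not overlap, and RPG1 and DED1 lie above the line, with smaller falls on scan day 2.

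The 32 genes also differed between the scan days within a group. Replicate 3 was below the mean of replicates 1 and 2 in both groups for 22 of the 32 genes (68.8%), against 40.3% of all genes tested. The median difference was -0.10 in untreated and -0.07 in glycolaldehyde samples, against -0.01 and -0.02 over all genes. It exceeded the difference between the groups for TEF2 (-0.37 and -0.43), YEF3 (-0.35 and -0.33), TEF1 (-0.25 and -0.36) and TIF35 (-0.23 and -0.34), among others. DED1 shifted by -0.76 in untreated and by -0.29 in glycolaldehyde samples, and RPG1 by -0.36 and 0.05. ANB1 shifted upwards, by 0.26 and 0.21. Culture, slide and scan day cannot be told apart in these differences. Nor can the group label, because the attached scanner files place untreated replicate 3 and glycolaldehyde replicate 1 in the opposite group.

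**Figure D5:**
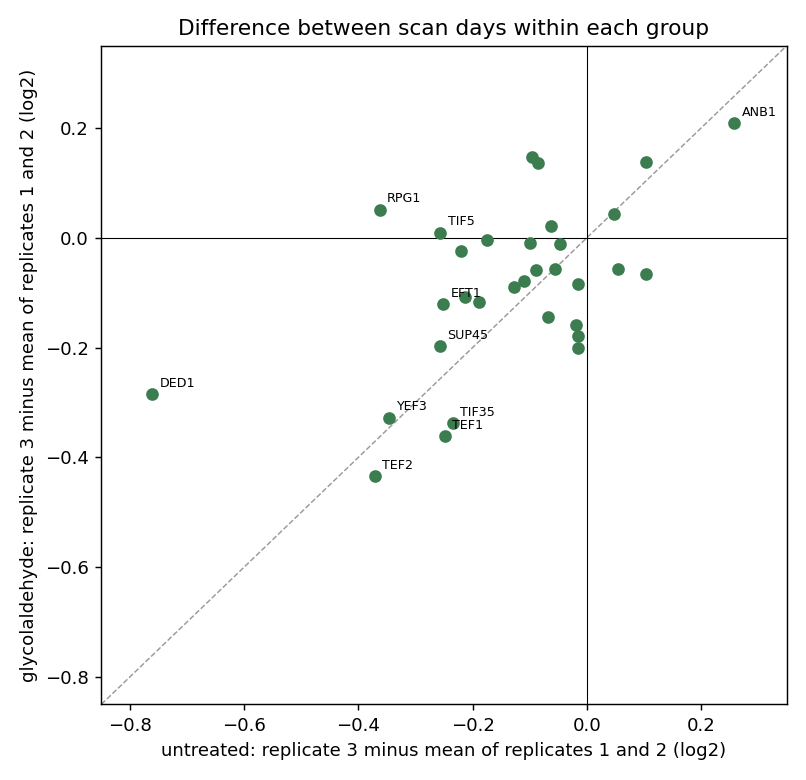
Log2 level of replicate 3 minus the mean of replicates 1 and 2, for untreated (horizontal axis) and glycolaldehyde samples (vertical axis), 1 point per gene for the 32 genes; the dashed line marks equal differences. TEF1, TEF2, YEF3 and TIF35 were low in replicate 3 of both groups, ANB1 was high in both, and DED1 was lowest in the untreated group.

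Further genes of translation were counted by list against the same background shares, 29.6% of all genes that rose and 23.5% that fell. Of 33 other cytosolic factors and regulators 13 rose and 5 fell (39.4% and 15.2%, median log2 change 0.04). MBF1, a coactivator that also limits frameshifting on stalled ribosomes, had log2 levels of 1.24, 1.26 and 0.73 in untreated and 2.48, 2.74 and 2.02 in glycolaldehyde samples. It rose by 1.34 ± 0.20, or 2.53-fold (limma adjusted p = 0.00123). GCN3, the alpha subunit of the eIF2 exchange factor eIF2B, rose by 0.49 ± 0.09, and RBG2, a ribosome-binding GTPase, rose by 0.48 ± 0.05. EAP1, which binds eIF4E in competition with eIF4G, fell by 0.51 ± 0.06. GCN1, an activator of Gcn2 on the ribosome, fell by 0.50 ± 0.09, and NEW1, an ATPase related to eEF3, fell by 0.29 ± 0.08. The call of NEW1 was lost without untreated replicate 2 or glycolaldehyde replicate 1 (adjusted p = 0.0515 and 0.0518).

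Among 18 enzymes and cofactors that modify translation factors 6 fell and 3 rose (median log2 change -0.11). LIA1, the deoxyhypusine hydroxylase that completes hypusine on eIF5A, fell by 0.46 ± 0.06 (limma adjusted p = 0.000405), while DYS1, which starts it, had a log2 change of -0.09 ± 0.05 (adjusted p = 0.192) and was picked after its value was seen. JJJ3, which acts in the synthesis of diphthamide on eEF2, fell by 0.44 ± 0.08, and EFM6, a methyltransferase of eEF1A, fell by 0.37 ± 0.07. DPH1, another diphthamide gene, rose by 0.43 ± 0.07, MTQ2, the methyltransferase of eRF1, rose by 0.28 ± 0.10, and RRT2, of the last steps of diphthamide synthesis, rose by 0.22 ± 0.05. RRT2 lost its call without untreated replicate 1 (adjusted p = 0.0501), and MTQ2 without untreated replicate 1 or 2 or glycolaldehyde replicate 1 or 3 (up to 0.133).

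Of 12 genes for mRNA-binding proteins and nonsense-mediated decay 3 fell and 1 rose (median log2 change -0.08). SLF1, an RNA-binding protein of the La family that associates with translating ribosomes, had log2 levels of -2.98, -3.02 and -3.06 in untreated and -1.80, -1.92 and -1.94 in glycolaldehyde samples, and rose 2.19-fold (1.13 ± 0.06 on the log2 scale, limma adjusted p = 8.33e-06). NGR1 and PUB1, which bind mRNA, fell by 0.60 ± 0.07 and 0.41 ± 0.07, and PAT1, a decapping activator and translational repressor, fell by 0.34 ± 0.06. Of 8 measured mitochondrial translation factors 3 rose and 2 fell. MEF2, which acts in recycling of mitochondrial ribosomes, RRF1, the mitochondrial recycling factor, and MRF1, the mitochondrial release factor, rose by 0.39 ± 0.08, 0.31 ± 0.07 and 0.25 ± 0.08. TUF1, the mitochondrial elongation factor Tu, and MEF1, the mitochondrial elongation factor G, fell by 0.25 ± 0.07 and 0.19 ± 0.06. MRF1 lost its call without untreated replicate 1 or 3 or glycolaldehyde replicate 1 or 2 (adjusted p of up to 0.102), TUF1 without untreated replicate 1 or 2 or glycolaldehyde replicate 1 (up to 0.0676), and MEF1 without replicate 1 or 2 of either group (up to 0.0876).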

How the data were processed

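Groups come from the sample titles, joined to the deposited value table by sample identifier. Per the file headers, spot intensity was read by the authors from single-colour arrays of design 015072 (7 spots per probe), using Agilent's Feature Extraction 11.0.1.1. The submitters' processing notes also list R 3.0.2, whose use is not given. The deposited table holds a linear intensity equal to the mean of a probe's processed signals (relative tolerance 1e-06), with column medians of 3307 to 5055 and 0 unmapped columns. The flags for spots well above background, saturation and outliers are also used as deposited.

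Here the log2 intensity minus the array's 75th percentile was modelled on treatment alone in limma 3.58.1 (lmFit, eBayes; R 4.3.3). Tests were two-sided, and p-values were adjusted by Benjamini-Hochberg. A probe was tested when over 0.5 of its spots were well above background on all 3 arrays of a group, and the brightest of several probes stood for a gene (29 genes). Gene names matched reference assembly R64 for 5748 probes, and its gene coordinates gave the order of neighbouring genes. No sequences were used, so the planned motif search was not run. The fit was tested on simulated data. The 32 genes, the further lists (93 names, 1 not matched) and the grouping were chosen with earlier results of these data known. All 32 genes are named, and up to 3 rises and 3 falls per further list, with HEM13 and DYS1 named besides. Deviations of same-numbered arrays from the group means correlated with 0.325, 0.404 and 0.624 over 5974 probes, all above 0.1. A replicate block was therefore fitted beside the main fit, which has no block and is unpaired. This pairing comes from these data, where untreated and glycolaldehyde replicate 3 were on the same slide and were scanned on the same day. Whether the other replicate numbers form pairs was not tested. The number of arrays limits the precision.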

Additional observations from a re-analysis of the deposited data

How the results depend on the processing

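Over 6 arrays 2 of the 32 genes rose and 13 fell, and 1761 of all genes rose and 1397 fell. With the scanner files as attached 0 of the 32 genes rose and 0 fell, as did 0 and 0 of all genes at a smallest adjusted p of 0.916 (limma, 137 genes at an unadjusted p under 0.05), and ANB1 had a log2 change of 0.027 in place of a fall. The other 14 genes that passed in the main fit kept their sign in that grouping, with smaller changes. DED1 had -0.62 (main fit -0.77), CAM1 -0.03 (-0.31), TIF4631 -0.04 (-0.25) and HCR1 0.03 (0.26). The median log2 change of the 32 genes was -0.22 on the 4 arrays on which the records agree. The number of the 32 genes that rose was 7 with the replicate block and 7 with scan day as a block, where 2174 and 2294 of all genes rose. It was 5 with slide as a block and 5 with normexp background correction, where 1995 and 1753 of all genes rose. Median centring gave 1, where 1603 of all genes rose, and scan day 1 alone gave 7 (added after seeing the data). The scan day 1 count is given without the count over all genes and is not read as a result about the 32 genes. With 1 array left out the number of the 32 genes that rose lay between 1 and 5. The number that fell lay between 9 and 16, and the median log2 change between -0.20 and -0.10. The numbers over all genes changed too: without untreated replicate 1, 1436 of all genes rose and 1138 fell, where 1 and 10 of the 32 genes did. Of the 15 genes that passed, 9 passed whichever array was left out. With scan day as a block, the mean of replicates 1 and 2 of each group was also taken as 1 array (added after seeing the data). In that fit 13 of the 15 calls held and those of FUN12 and CDC33 were lost. Of the 8 genes gained with the replicate block 2 passed. Standard errors in that fit were nearly the same for all 32 genes, so its p-values follow mainly the size of the change. The fits without a filter, with the mean over probes, with quantile normalization and with spot means free of outliers changed the call of at most 1 of the 32 genes each. A gene that passed in neither the main fit nor the replicate block fit was not called as rising or falling. The signs of all log2 changes are given and counted without regard to passing. The normexp fit used median spot signals in place of the planned mean signals. The causes of these differences were not tested.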
